A study of Homo sapiens with 12 samples.

Results

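The mitochondrial ribosomal protein genes were taken as all protein-coding genes of GENCODE version 44, mapped to GRCh37, on chromosomes 1 to 22 whose symbol is MRPL or MRPS followed by a number. These were 78 of 19229 protein-coding genes, of which 49 encode proteins named for the large subunit (MRPL) and 29 proteins named for the small subunit (MRPS). They lay on 21 chromosomes. A peak was assigned to a gene when its summit, the base with the highest signal, lay within 1 kb of the start of any transcript of that gene.

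Cohesin and CTCF were mapped by chromatin immunoprecipitation sequencing (ChIP-seq) in HAP1, a human line with a nearly haploid genome that stems from a chronic myeloid leukaemia. Antibodies against SMC1, a core subunit of the cohesin ring, against CTCF, a zinc-finger protein that halts cohesin on DNA, and non-specific IgG were used in 4 genotypes. Wild-type cells were compared with ΔWAPL cells, which lack the factor that releases cohesin from DNA, ΔSCC4 cells, which lack the SCC4 (MAU2) subunit of the SCC2/SCC4 cohesin loader, and cells with both deletions, ΔWAPL/ΔSCC4, called the double deletion here. The comparison asked where cohesin sits when its release, its loading or both are impaired. All cells were HAP1. Both single deletions were made with CRISPR nucleases and the insertion of a resistance cassette, for blasticidin in ΔWAPL and for puromycin in ΔSCC4 cells. The double deletion was made by removing SCC4 from ΔWAPL cells and so carries both. Deleted lines were clones. Their libraries represent 1 line per genotype, and the peak lists hold no measure of the deleted proteins.

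Each genotype and antibody had 1 library, so there was no replicate, no test was made between genotypes, and every value describes these libraries only. The deposited lists give no read numbers, but the number of reads that cover each summit could be recovered as a whole number for 100% of the SMC1 and CTCF peaks. Intervals given with read numbers are exact 95% Poisson intervals, and those of ratios are exact 95% conditional intervals. They cover counting error only, and reads may include copies of 1 molecule. The genome-wide average was 6.79 to 8.41 reads per kb in the 4 SMC1 libraries and 6.53 to 8.41 in the 4 CTCF libraries. The weakest SMC1 summit of each list had 8 or 9 reads. To set libraries side by side, summit reads were divided by the average number of reads at a base of the same library, 1.54 to 1.67 for SMC1, and the result is called the multiple of the average. No IgG peak of any genotype lay near a member start (0 peaks).

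Mitochondria keep their own ribosome, which makes the few proteins encoded by mitochondrial DNA, all of them parts of the respiratory chain or the ATP synthase. Its RNAs come from the mitochondrial genome, whereas all its proteins are encoded in the nucleus, made in the cytosol and imported. The genes for these proteins are scattered over the genome, are active in nearly every cell type, and mostly have broad CpG-rich promoters without a TATA box. Cohesin is loaded along open chromatin, including active promoters, moves along DNA while extruding a loop, and is held at CTCF sites until WAPL releases it.

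Sequences at member summits are shown first, because the members fall into starts where SMC1 lay with CTCF and starts where it lay without. All are from GRCh37, are written 5′ to 3′ in the direction of the gene, and show matches to the searched promoter motifs in capitals. The 4 members with the highest −log10 q in ΔWAPL and no overlapping CTCF peak were MRPS31, MRPL21, MRPL44 and MRPS23, and sequences are given for 3 of them. These windows reach up to 100 bases on each side of the ΔWAPL SMC1 summit and leave out untranslated bases. MRPS31, at chr13:41345327-41345486 on the minus strand, has 1 match to the ETS core CCGGAAG:
MRPS31: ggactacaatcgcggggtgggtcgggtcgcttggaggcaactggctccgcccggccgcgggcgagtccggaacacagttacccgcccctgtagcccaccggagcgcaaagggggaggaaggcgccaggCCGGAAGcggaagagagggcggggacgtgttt
MRPL44, at chr2:224821957-224822157 on the plus strand, has 1 match to the NRF1 core GCGCANGCG:
MRPL44: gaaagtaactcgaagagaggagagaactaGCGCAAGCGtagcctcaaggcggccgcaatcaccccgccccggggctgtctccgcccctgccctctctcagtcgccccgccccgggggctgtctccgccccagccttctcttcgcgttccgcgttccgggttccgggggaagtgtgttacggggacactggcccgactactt
MRPS23, at chr17:55927452-55927652 on the minus strand, has no match to the motifs searched:
MRPS23: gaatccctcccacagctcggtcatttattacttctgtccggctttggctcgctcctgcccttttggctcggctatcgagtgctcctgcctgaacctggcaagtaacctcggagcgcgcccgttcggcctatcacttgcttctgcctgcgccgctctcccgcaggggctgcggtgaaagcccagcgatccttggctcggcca
The members with SMC1 and the highest wild-type CTCF −log10 q were MRPS12 and MRPL39, and their windows are centred on that CTCF summit. MRPS12, at chr19:39421036-39421236 on the plus strand, lies in the neighbouring gene SARS2, which encodes the mitochondrial seryl-tRNA synthetase, and has 1 NRF1 core:
MRPS12: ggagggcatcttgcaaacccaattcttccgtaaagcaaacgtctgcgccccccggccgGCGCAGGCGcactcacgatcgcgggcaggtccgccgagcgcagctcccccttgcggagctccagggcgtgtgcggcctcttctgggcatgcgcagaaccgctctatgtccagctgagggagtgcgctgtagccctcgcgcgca
MRPL39, at chr21:26980646-26980846 on the minus strand, lies 917 bp upstream of the nearest MRPL39 start in intergenic DNA and holds none of the motifs:
MRPL39: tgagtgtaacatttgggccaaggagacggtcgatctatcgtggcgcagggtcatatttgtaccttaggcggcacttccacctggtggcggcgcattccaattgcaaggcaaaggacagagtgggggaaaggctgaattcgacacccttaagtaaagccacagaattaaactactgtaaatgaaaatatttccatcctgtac
The guanine and cytosine content was 70% in the MRPS31 window, 66.7% in that of MRPL44, 62.2% in that of MRPS23 and 67.7% in that of MRPS12. It was lower, at 47.8%, in the distal window of MRPL39, which had 8 CpG dinucleotides in 201 bases against 20 in the MRPL44 window of equal length.

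SMC1 was found near the start of most mitochondrial ribosomal protein genes in ΔWAPL cells, but not in the other genotypes. Of the 78 members, 21 had a near-start SMC1 peak in wild-type cells, 26.9% against 17.6% of all protein-coding genes. In ΔWAPL cells it was 52 members, 66.7% against 44.4%. In ΔSCC4 cells 11 members had one, 14.1% against 12.1%, which is close to the background of all genes. In ΔWAPL/ΔSCC4 cells 27 members had one, 34.6% against 24.7%. The ΔWAPL list thus held the most members and the ΔSCC4 list the fewest, and the double deletion lay between wild-type and ΔWAPL cells. The whole SMC1 lists differed in length too, with 33952 peaks for ΔWAPL, 26558 for the double deletion, 18542 for wild-type and 12779 for ΔSCC4 cells. With equal numbers of the strongest peaks taken from each list, there were 12 members in wild-type and 20 in ΔWAPL cells, with 11 in ΔSCC4 cells and 9 in the double deletion, which was then the lowest. With −log10 q of at least 10 the ΔWAPL count was 28. The place of the double deletion also depended on the threshold, with 17 members in it and 17 in wild-type cells at −log10 q of at least 5, and 13 against 17 at a fold enrichment of at least 5. Nearly all members have CpG-rich starts, and genes with such starts carried SMC1 more often than others. Among CpG-rich starts only, 66.2% of 74 members and 57.8% of 12590 genes had SMC1 in ΔWAPL cells. In wild-type cells these shares were 28.4% and 22%.

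**Figure D1:**
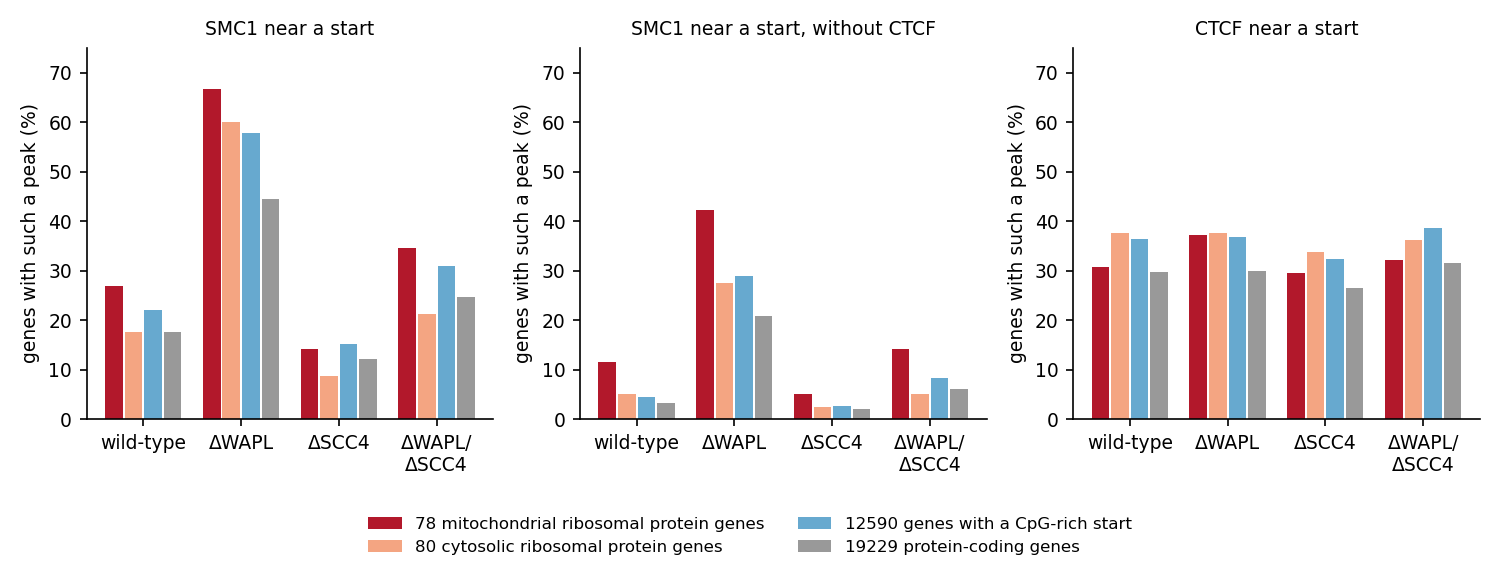
Share of genes (%) with an SMC1 peak near a start (left), with an SMC1 peak near a start that overlaps no CTCF peak (middle) and with a CTCF peak near a start (right), in 4 genotypes with 1 library each. Bars stand for the mitochondrial ribosomal protein genes, the cytosolic ribosomal protein genes, genes with a CpG-rich start and all protein-coding genes. SMC1 near members ranges from 14.1% in ΔSCC4 to 66.7% in ΔWAPL cells, whereas CTCF stays between 29.5% and 37.2%.

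In ΔWAPL cells 29 of 49 MRPL genes (59.2%) and 23 of 29 MRPS genes (79.3%) had SMC1 near a start. The share was 44.4% over all genes and 57.8% among CpG-rich starts, so the MRPL share was close to the latter. In wild-type cells the shares of the subunits were nearly equal, at 26.5% and 27.6%, against 17.6% of all genes and 22% among CpG-rich starts. In ΔWAPL/ΔSCC4 cells they were 28.6% and 44.8%, against 24.7% of all genes and 31% among CpG-rich starts. Across genotypes, 8 members had SMC1 in all 4 lists (10.3% against 9.68% of all genes), and 25 had it in none (32.1% against 53.5%). The 8 were MRPL17, MRPL21, MRPL34, MRPL38, MRPL39, MRPS12, MRPS18C and MRPS33. A further 8 members were missing from the ΔSCC4 list alone, namely MRPL3, MRPL9, MRPL16, MRPL58, MRPS6, MRPS11, MRPS27 and MRPS34. MRPL1, MRPL30 and MRPS5 had SMC1 in wild-type and ΔWAPL cells only. MRPL40 lacked it in the double deletion alone. Patterns other than all 4 lists or none were not counted over all genes here, so whether members differ in them is not known.

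**Figure D2:**
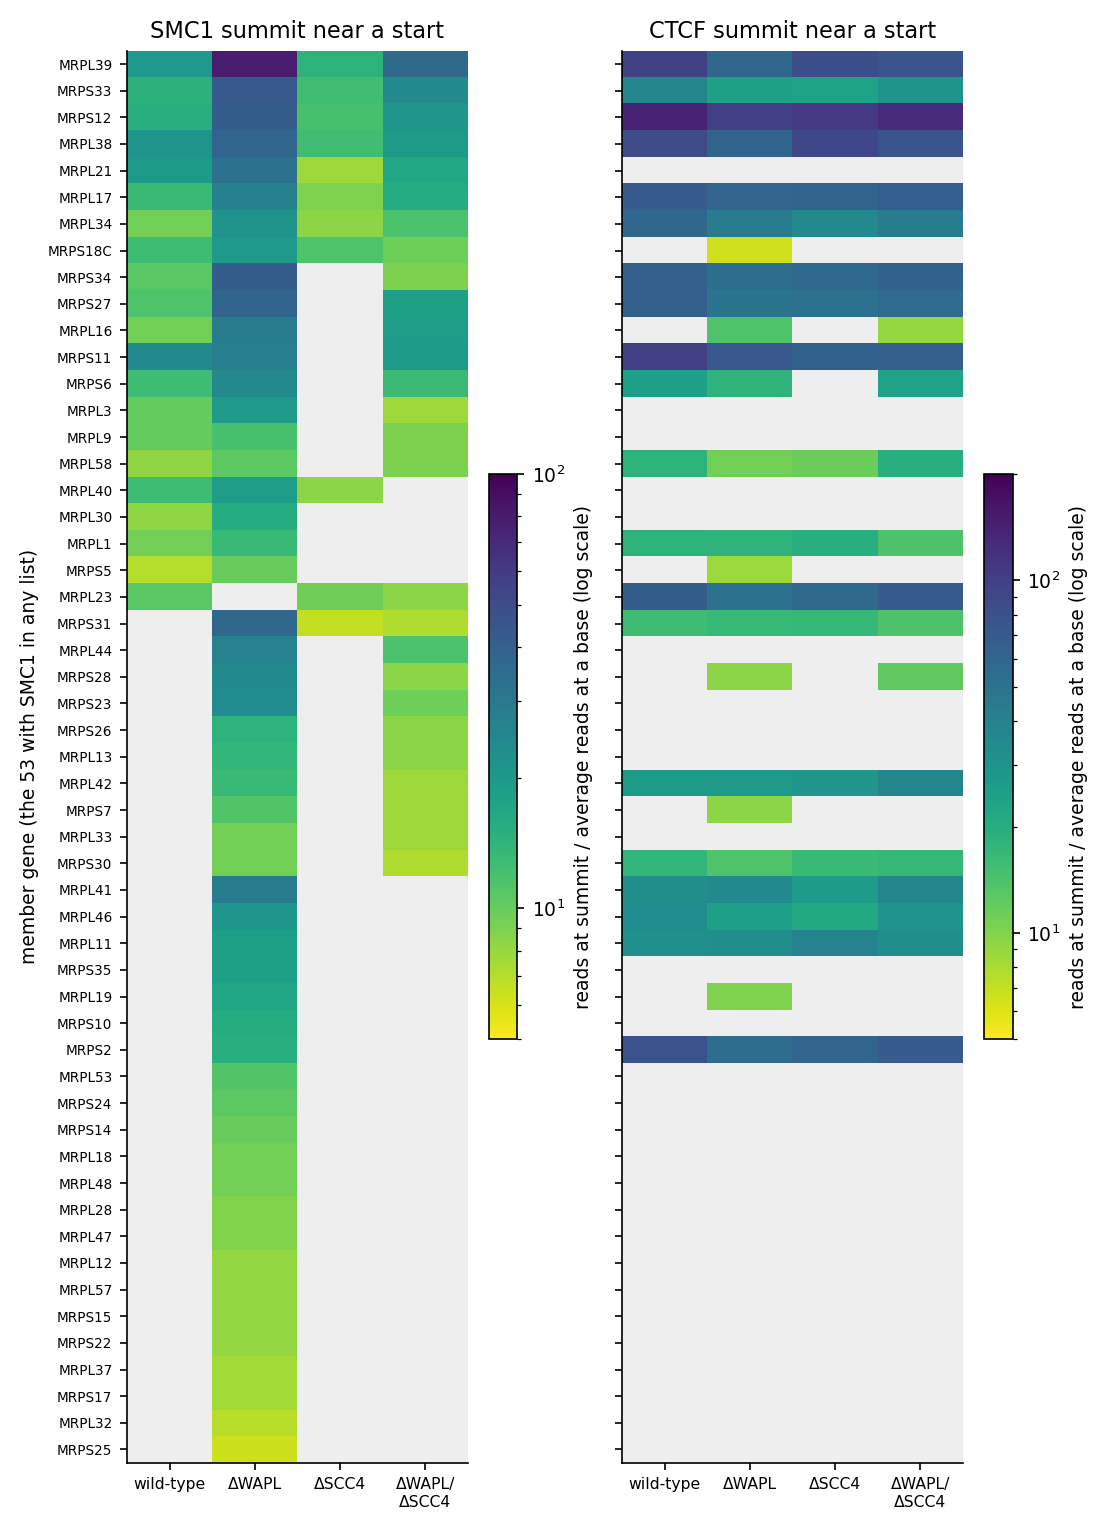
Summit reads divided by the average reads at a base of the library (colour, log scale) for the highest near-start SMC1 (left) and CTCF (right) peak of the 53 members with SMC1 in any list, by genotype, with 1 library per column. Grey marks no peak in the list. The largest block of rows has colour in the ΔWAPL column of SMC1 alone (22 members), while CTCF columns look alike across genotypes. The share of all genes with this ΔWAPL-only pattern was not counted.

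Among the members with SMC1 in wild-type cells, the strongest signal in ΔWAPL cells was at MRPL39, which encodes a large-subunit protein without a bacterial counterpart. Its summit had 32 reads in wild-type and 125 in ΔWAPL cells, with 24 in ΔSCC4 cells and 55 in the double deletion. The summit was highest in ΔWAPL and lowest in ΔSCC4 cells, and the ΔWAPL interval (104 to 149 reads) lay above the other 3 intervals. After scaling for depth, ΔWAPL was 3.87 times wild-type (interval 2.60 to 5.89). The local background differed too, with 3.59 reads in wild-type and 8.80 in ΔWAPL cells. The ratio of fold enrichments, which set summit reads against local background, was therefore smaller, at 1.79. The ΔWAPL peak, at chr21:26979454-26980135, had its summit in intergenic DNA 46 bp upstream of a start and overlapped a CTCF peak.

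MRPS33, MRPS12, MRPS27 and MRPS34, all small-subunit genes, showed the same order between wild-type and ΔWAPL cells. MRPS33 had 23 reads in wild-type and 69 in ΔWAPL cells, with 21 in ΔSCC4 cells and 37 in the double deletion. MRPS12, the counterpart of the bacterial decoding-centre protein S12, had 24, 66, 20 and 32 reads in the same order. The scaled ratio of ΔWAPL to wild-type was 2.97 (1.83 to 4.99) at MRPS33 and 2.72 (1.68 to 4.54) at MRPS12, so that neither interval included equality. At MRPS27, a protein with pentatricopeptide repeats, the reads were 18 in wild-type, 61 in ΔWAPL and 28 in the double deletion. At MRPS34 they were 17, 66 and 14. Neither MRPS27 nor MRPS34 had a peak in ΔSCC4 cells, and their ratios of ΔWAPL to wild-type were 3.35 (1.96 to 6.03) and 3.84 (2.23 to 6.99). The ratios of fold enrichments were smaller, at 1.91 for MRPS33, 1.65 for MRPS12, 1.86 for MRPS27 and 1.94 for MRPS34.

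Among other large-subunit genes, MRPL38, which encodes a protein of the central protuberance, had 33 reads in wild-type and 60 in ΔWAPL cells, with 21 in ΔSCC4 cells and 30 in the double deletion. MRPL21, which had no CTCF peak, had 31, 52, 13 and 26 reads in this order. In both the ΔWAPL value was the highest and the ΔSCC4 value the lowest of the 4. The same held for MRPL17, which lies near the exit tunnel, with 21, 43, 15 and 24 reads. It held for MRPL34 too, with 15, 34, 14 and 18 reads. MRPL16, the counterpart of bacterial L16, had 15 reads in wild-type, 45 in ΔWAPL and 29 in the double deletion, and a ratio of ΔWAPL to wild-type of 2.97 (1.62 to 5.73). Its ratio of fold enrichments was 1.79. Like the members that follow, MRPL16 had no ΔSCC4 peak. MRPL3, whose product lies close to the peptidyl transferase centre, had 16, 32 and 12 reads in the same genotypes. MRPS6 had 20, 39 and 20 reads. The double deletion was thus at or below wild-type in read number at MRPL3 and MRPS6 and above it at MRPL16.

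Not every shared site stood out in ΔWAPL cells. MRPS11 had the highest wild-type summit of any member, with 38 reads, against 44 in ΔWAPL and 30 in the double deletion. Its ratio of ΔWAPL to wild-type was 1.15 (0.726 to 1.82). This peak, with its ΔWAPL summit at position 89019993 of chromosome 15, lies in a non-coding exon of MRPS11 at an alternative start inside the gene, and not at the start that MRPS11 shares with MRPL46. MRPL9, MRPS18C and MRPL40 were of the same kind. At MRPL9 the reads were 16 in wild-type, 19 in ΔWAPL and 14 in the double deletion. At MRPS18C, 1 of 3 paralogous small-subunit genes, they were 20, 32, 19 and 15 in wild-type, ΔWAPL and ΔSCC4 cells and the double deletion. At MRPL40 they were 20, 30 and 14 in the first 3 of these. The interval of the ratio of ΔWAPL to wild-type included 1 at MRPS11 and at each of these 3 genes. It also included 1 at MRPL1, MRPL30, MRPL58 and MRPS5, which had 11 to 15 reads in wild-type and 16 to 25 in ΔWAPL cells.

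Over the 20 members with overlapping near-start peaks in both lists, the depth-scaled ratio of ΔWAPL to wild-type had a median of 1.92 and ranged from 1.15 to 3.87. It was above 1 in 20 of 20, and its interval lay above 1 in 12. Over all 3207 genes with such a pair the median was 1.84, and 92.9% of the ratios were above 1, so the members' ratios were much like those of other genes. With fold enrichment in place of summit reads the members' median was 1.41. The exception to shared sites was MRPL23, the only member with SMC1 in wild-type but not in ΔWAPL cells (1.28% of members against 0.629% of all genes). It had 17 reads in wild-type, 16 in ΔSCC4 and 13 in the double deletion. Its ΔSCC4 peak lay at another start of the gene than the other peaks.

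**Figure D3:**
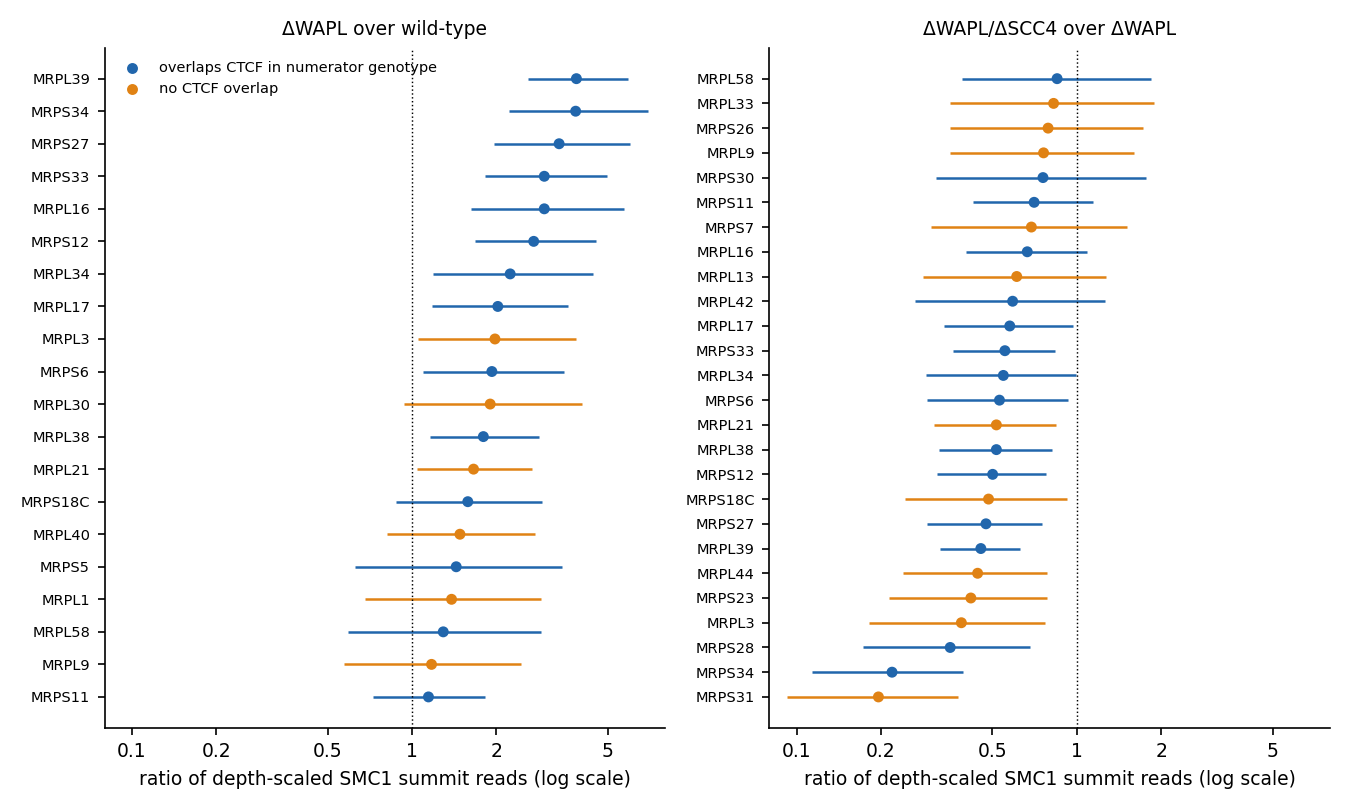
Ratio of depth-scaled SMC1 summit reads (log axis) at members with overlapping near-start peaks in both lists, ΔWAPL over wild-type (left, 20 members) and ΔWAPL/ΔSCC4 over ΔWAPL (right, 26 members). Points are ratios and lines are exact 95% intervals for counting error, 1 library per genotype. All points of the left panel lie above 1 and all points on the right lie under 1.

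The larger difference was in the number of starts with a peak. SMC1 lay near 32 members in ΔWAPL but not in wild-type cells, 41% against 27.4% of all genes. Among CpG-rich starts the shares were 39.2% and 36.6%, which are nearly alike. Since a weak peak can be missed by chance, each of these sites was set against the number of reads that would have been called in wild-type cells, 9 to 16 depending on the local background. At 15 of the 32, the lower limit of the depth-scaled ΔWAPL reads exceeded that number. At the other 17 the absence of a wild-type peak was within the counting error of the ΔWAPL reads. The counting error of the wild-type reads is left out, so sites near the limit do not show that the libraries differ. The 32 summits had 10 to 58 reads, with a median of 17.5.

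The strongest of these sites was at MRPS31, a small-subunit gene whose product has no bacterial counterpart. MRPS31 had no wild-type peak, 58 reads in ΔWAPL (44 to 75), 11 in ΔSCC4 and 11 in the double deletion. At wild-type depth the ΔWAPL reads correspond to 57.4, and 14 would have sufficed for a call. The ΔWAPL peak, at chr13:41345013-41345614, had its summit in intergenic DNA 60 bp upstream of the start, in the sequence printed above. It overlapped no CTCF peak. MRPS31 counts as a gene with CTCF only through a CTCF summit at another start inside the gene.

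Such a site was found at 17 of 49 MRPL (34.7%) and 15 of 29 MRPS genes (51.7%). The share was 27.4% over all genes and 36.6% among CpG-rich starts. The next strongest sites are given by subunit. MRPL44, whose product has a ribonuclease III-like fold, had 42 reads in ΔWAPL and 18 in the double deletion and no peak in the other 2 genotypes. MRPL41 had 45 reads in ΔWAPL cells and no peak elsewhere. In wild-type cells 10 reads would have been called at MRPL44 and 12 at MRPL41. MRPL46 had 33 reads in ΔWAPL cells only. MRPL11, which encodes a protein at the base of the stalk that binds elongation factors, had 29, and MRPL19 had 27. MRPL13 had 22 reads in ΔWAPL and 13 in the double deletion. These genes were chosen for a high ΔWAPL −log10 q without a wild-type peak, and ΔSCC4 cells had no peak at any of them. The MRPL46 peak, at chr15:89010355-89011074, spans the start region shared with MRPS11, for which it was the second peak, and its summit lay in a coding exon of MRPL46. Among small-subunit genes, MRPS23 had 37 reads in ΔWAPL and 15 in the double deletion. MRPS28 had 38 and 13 reads in these, and MRPS35 had 29 in ΔWAPL cells only. All 10 members with values here and above exceeded the number needed for a wild-type call. This follows largely from their choice as those of highest ΔWAPL −log10 q without a wild-type peak.

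In the deposited lists, SMC1 without CTCF made up most of the members' ΔWAPL sites, 33 of 52. This depended on the threshold. It was 19 of 37 at a fold enrichment of at least 5 and 14 of 28 at −log10 q of at least 10. With equal numbers of the strongest peaks it was 7 of 20. In wild-type cells 9 members had SMC1 near a start with no overlapping CTCF peak, 11.5% against 3.29% of all genes. In ΔWAPL cells there were 33, 42.3% against 20.9%. In ΔSCC4 cells 4 members had such a peak, 5.13% against 1.94%, and in the double deletion 11, 14.1% against 6.05%. The members' share was above that of all genes in each genotype, and it was also above among CpG-rich starts. There, 41.9% of members and 28.8% of genes had SMC1 without CTCF in ΔWAPL cells, and 12.2% and 4.48% in wild-type cells. Members with such starts also had CTCF less often in wild-type cells, 29.7% against 36.4% of genes. In ΔWAPL cells the CTCF shares were alike, at 36.5% and 36.7%. The part of CTCF in the shares of SMC1 without CTCF was not tested. MRPL21 was the only member in which SMC1 lay without CTCF in all 4 genotypes. Of the 47 members with no CTCF peak near a start in any list, 5 had SMC1 in wild-type and 27 in ΔWAPL cells, with 2 in ΔSCC4 cells and 8 in the double deletion. Of the 21 members with CTCF in all 4 lists, 12, 18, 8 and 14 had SMC1. The same counts were not made over all genes of these CTCF classes, so whether members differ from them is not known.

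Deletion of SCC4 was set against wild-type and against ΔWAPL cells. SMC1 was near 11 members in wild-type but not in ΔSCC4 cells, 14.1% against 7.54% of all genes, and 14.9% against 9.49% among CpG-rich starts. These shares also reflect that members had SMC1 more often in wild-type cells. Of those with a wild-type peak, 11 of 21 members and 1450 of 3393 genes lacked it in ΔSCC4 cells. The missing members were MRPL1, MRPL3, MRPL9, MRPL16, MRPL30, MRPL58, MRPS5, MRPS6, MRPS11, MRPS27 and MRPS34. Their wild-type reads, 11 to 38, were mostly close to the number that would have been called in ΔSCC4 cells. Only at MRPS6, MRPS11 and MRPS27 did the lower limit of the scaled reads exceed it. The counting error of the ΔSCC4 reads was again left out. At the 9 members with overlapping peaks in both lists, the ratio of ΔSCC4 to wild-type had a median of 0.707 and was below 1 in all 9. Over 1904 genes the median was 0.798 and only 23.5% of ratios were above 1, so most other genes were lower too. Its interval lay below 1 at MRPL21 alone, with a ratio of 0.395 (0.190 to 0.778).

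In ΔWAPL cells the removal of SCC4 left fewer members with SMC1. A peak was present in ΔWAPL but not in the double deletion at 26 members, 33.3% against 21.2% of all genes. Among CpG-rich starts the shares were 31.1% and 28.6%, which are nearly alike. Of those with a ΔWAPL peak, 26 of 52 members and 4075 of 8538 genes lacked it in the double deletion, again nearly alike. At 12 of the 26 members the lower limit of the scaled ΔWAPL reads exceeded the number needed for a call. These were MRPL1, MRPL11, MRPL19, MRPL30, MRPL40, MRPL41, MRPL46, MRPS2, MRPS10, MRPS14, MRPS24 and MRPS35. Some, such as MRPS14 and MRPS24, were only just above it, and the counting error of the double-deletion reads was left out. At the 26 members with overlapping peaks in both lists, the ratio of ΔWAPL/ΔSCC4 to ΔWAPL had a median of 0.538 and was below 1 in 26 of 26, with 16 intervals below 1. Over 4325 genes the median was 0.675 and only 12.5% of ratios were above 1, so most other genes were lower too. The lowest ratios were at MRPS31, 0.196 (0.0927 to 0.377), and MRPS34, 0.219 (0.114 to 0.394), and the highest was at MRPL58, 0.851 (0.388 to 1.83). MRPL58 encodes a peptidyl-tRNA hydrolase that is also a ribosomal subunit.

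Set against wild-type instead, the double deletion was close to equality. At 17 members with overlapping peaks the median ratio of ΔWAPL/ΔSCC4 to wild-type was 1.02, with 9 ratios above and 8 below 1, while 74.7% of 2806 genes had a ratio above 1. Only MRPL16, 1.98 (1.03 to 3.97), and MRPL39, 1.76 (1.12 to 2.81), had intervals above 1. These comparisons share the wild-type or the ΔWAPL library, and their ratios are therefore not independent of each other.

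CTCF near members varied less across genotypes. CTCF lay near 24 members in wild-type cells (30.8% against 29.7% of all genes), 29 in ΔWAPL (37.2% against 30%), 23 in ΔSCC4 (29.5% against 26.4%) and 25 in the double deletion (32.1% against 31.5%). It was in all 4 lists at 21 members, 26.9% against 24.3%, and in none at 47, 60.3% against 64.7%. These shares are near the background of all genes. Among CpG-rich starts, members had CTCF less often than genes in wild-type cells, 29.7% against 36.4%. The same held in ΔSCC4 cells (28.4% against 32.4%) and the double deletion (31.1% against 38.6%). In ΔWAPL cells the shares were alike, at 36.5% and 36.7%. MRPS12 had the strongest CTCF summit, with 150 reads in wild-type and 136 in ΔWAPL cells, with 132 in ΔSCC4 cells and 155 in the double deletion. At MRPL39 the CTCF reads were 107, 80, 102 and 95 in the same order. MRPL39 was second by −log10 q, followed by MRPS11, MRPL38, MRPS2 and MRPL17, all with CTCF in every genotype. MRPS11 had 108, 100, 78 and 80 reads. MRPL38 had 93, 84, 110 and 94 reads. The highest wild-type SMC1 summits at MRPS11, MRPL38 and MRPL17 lay 18 or 19 bp from these CTCF summits. At MRPL39 the highest wild-type SMC1 summit lay 3 bp from a second CTCF summit of 46 reads, and the SMC1 peak beside the 107-read CTCF summit had 19 reads. MRPS2 had 86, 73, 74 and 84 CTCF reads. MRPL17 had 75, 82, 75 and 81. No genotype had the lowest value at all 6 of these genes. Scaled for depth, ΔWAPL was lower than wild-type at 19 of 23 members with overlapping CTCF peaks, with a median ratio of 0.740 and 5 intervals below 1. Over 5162 genes the median was 0.808 and only 19.8% of ratios were above 1, much as at the members. The median ratio was 0.826 for ΔSCC4 and 0.919 for ΔWAPL/ΔSCC4 against wild-type.

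CTCF did not always come with SMC1. MRPL54 had 35 CTCF reads in wild-type and 39 in ΔWAPL cells, with 37 in ΔSCC4 cells and 39 in the double deletion, and no SMC1 peak in any. MRPL10, whose product anchors the stalk, had 30, 28, 17 and 21 CTCF reads and no SMC1 peak. MRPL55, MRPL51 and MRPL14 had CTCF in only some lists, with 9 to 15 reads, and no SMC1. MRPS2 had SMC1 only in ΔWAPL cells, with 24 reads, despite a CTCF summit in every genotype.

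The summits lay close to the starts. In ΔWAPL cells the median distance from the SMC1 summit to the nearest start was 61 bp over the 52 members, and 33 summits (63.5%) lay within 100 bp, against 42.4% over all genes with a peak. At members without CTCF it was 23 of 33 (69.7% against 49.4%). Summits on both sides of the start occurred, with 31 of 52 upstream. Peaks with CTCF were stronger, with a median of 27.0 times the average in ΔWAPL cells against 11.3 without CTCF, and over all genes these medians were 20.1 and 10.0. Where SMC1 overlapped CTCF at a member in ΔWAPL cells, the SMC1 and CTCF summits were 1 to 241 bp apart, with a median of 19 bp. By annotation, the ΔWAPL SMC1 summits lay in introns at 17 members, coding exons at 12, intergenic DNA at 11, untranslated regions at 10 and non-coding exons at 2, counting exons of any gene at that base.

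**Figure D4:**
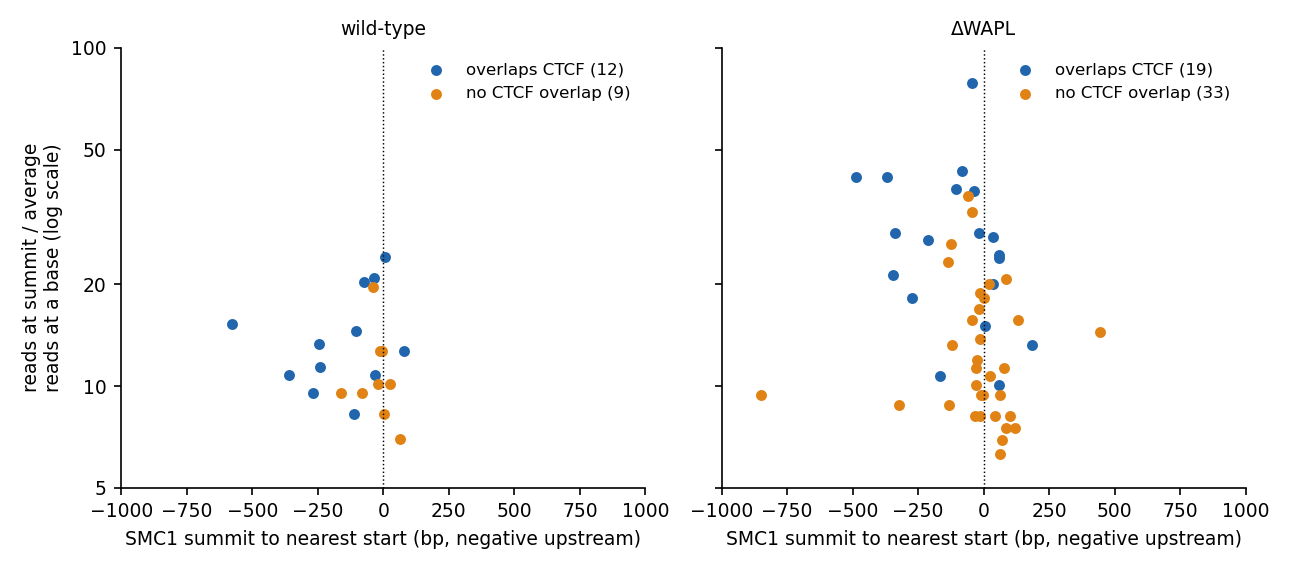
Distance from the SMC1 summit to the nearest transcript start (bp, negative upstream) against summit reads divided by the average reads at a base (log axis), for members in wild-type (left) and ΔWAPL cells (right), 1 library each. Colours mark overlap with a CTCF peak of the same genotype. Summits without CTCF crowd around the start, and the highest summits in ΔWAPL cells overlap CTCF.

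Many members share their promoter region with a gene on the opposite strand. A protein-coding gene started head to head within 1 kb at 31 members (39.7%), against 16.4% of all genes. The closest were FAU, 6 bp from MRPL49, and PELI3, 7 bp from MRPL11. Several partners also encode mitochondrial proteins. NDUFS6, a complex I subunit, started 41 bp from MRPL36, NDUFB5, another, 41 bp from MRPL47, TWNK, the mitochondrial DNA helicase, 21 bp from MRPL43, and SARS2 181 bp from MRPS12. MRPL46 and MRPS11 started 63 bp apart from each other. With a partner, 19 of 31 members (61.3%) had SMC1 in ΔWAPL cells, and without one 33 of 47 (70.2%). Over all genes the order was the other way, 59.4% with and 41.5% without a partner. At such promoters a summit cannot be assigned to 1 of the 2 genes.

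The sequence of the starts was compared in 300 bp, from 250 bp before to 49 bp after the first base of the canonical transcript. All 78 members and 18978 protein-coding genes had a sequence. Motifs were searched on both strands as exact letters, and a base could belong to more than 1 motif. The core bound by ETS factors, CCGGAAG, was in 32 members (41%) and 14.2% of all genes. The YY1 core ATGGCGG was in 26 members (33.3%) and 7.85% of genes, and since it holds ATG it can also match a translation start. The NRF1 core GCGCANGCG, bound by a regulator of nuclear genes for mitochondrial proteins, was in 15 members (19.2%) and 11% of genes. TATAAA was in 4 members (5.13%) and 9.65% of genes. CpG-rich starts, with a guanine and cytosine content of at least 50% and a CpG ratio of observed to expected of at least 0.6, made up 74 members (94.9%) and 66.3% of genes. Motifs were not counted among CpG-rich genes, so the part of CpG content in the motif shares was not tested. Members with and without SMC1 in ΔWAPL cells were much alike in the ETS and YY1 cores. The ETS core was in 40.4% of the 52 with and 42.3% of the 26 without SMC1, and the YY1 core in 34.6% and 30.8%. The NRF1 core was in 8 (15.4%) and 7 (26.9%) of these. Matches of letters do not show binding.

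**Figure D5:**
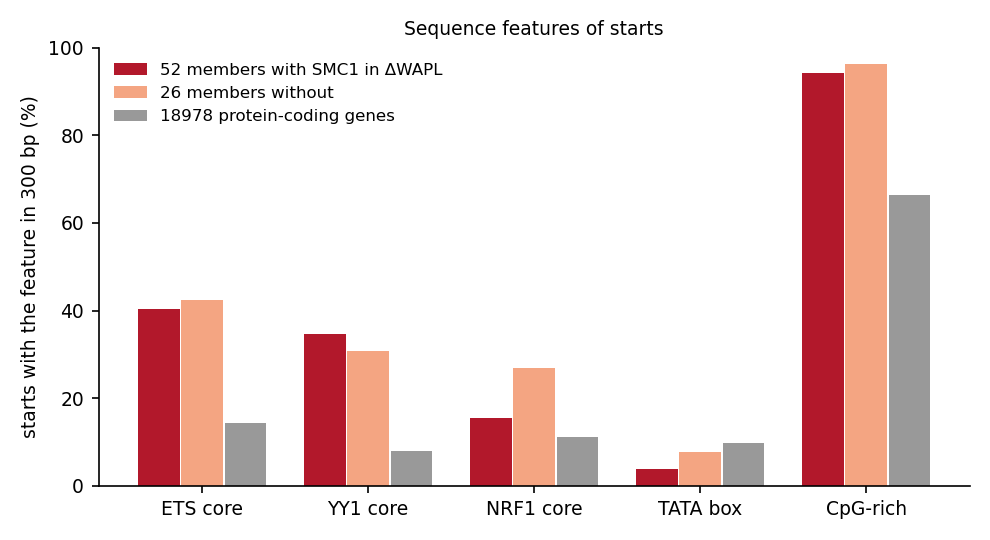
Share of starts (%) whose 300 bp hold an ETS, YY1 or NRF1 core or TATAAA on either strand, or that are CpG-rich, for the 52 members with and the 26 members without an SMC1 peak in ΔWAPL cells and for all protein-coding genes. Both groups of members hold the ETS and YY1 cores more often than all genes (40.4% and 42.3% against 14.2% for the ETS core).

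Other genes of mitochondrial translation were counted from lists of genes with known roles. In ΔWAPL cells, where 44.4% of all genes had SMC1, it lay near 15 of 20 genes (75%) for mitochondrial aminoacyl-tRNA synthetases and amidotransferase subunits, which charge the tRNAs. It lay near 14 of 16 genes (87.5%) for translation factors and near 18 of 22 (81.8%) for assembly factors and RNA-modifying enzymes of the ribosome. It lay near 3 of 6 subunit genes (50%) that carry another name. In wild-type cells the counts were 10 (50%), 3 (18.8%), 3 (13.6%) and 1 (16.7%) in the same order, against 17.6% of all genes, so only the first list was well above that share. In the double deletion they were 7 (35%), 8 (50%), 4 (18.2%) and 1 (16.7%), against 24.7%. GFM1, the mitochondrial elongation factor G, had 48 reads in wild-type and 79 in ΔWAPL cells, with 27 in ΔSCC4 cells and 49 in the double deletion. DAP3, a GTP-binding small-subunit protein, had 19 reads in wild-type, 34 in ΔWAPL and 13 in the double deletion. SARS2 was counted through the same peak as MRPS12. The 80 cytosolic ribosomal protein genes had SMC1 at 14 genes in wild-type and 48 (60%) in ΔWAPL cells, with 7 in ΔSCC4 cells and 17 in the double deletion. All these counts were highest in ΔWAPL cells.

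The remaining members had no SMC1 summit within 1 kb in any list. Besides the 5 with CTCF, these were MRPL2, MRPL4, MRPL15, MRPL20, MRPL22, MRPL24, MRPL27, MRPL35, MRPL36, MRPL43, MRPL45, MRPL49, MRPL50 and MRPL52 of the large subunit, and MRPS9, MRPS16, MRPS18A, MRPS18B, MRPS21 and MRPS36 of the small subunit. MRPL45, which tethers the ribosome to the inner membrane, and MRPL24, which lies near the exit tunnel, are among them. MRPS36 keeps its name although its product is now assigned to the alpha-ketoglutarate dehydrogenase complex. Of the MRPS18 paralogs, MRPS18C had SMC1 in every genotype while MRPS18A and MRPS18B had it in none. The other members that had SMC1 in ΔWAPL cells only were MRPL12, MRPL18, MRPL28, MRPL32, MRPL37, MRPL47, MRPL48, MRPL53, MRPL57, MRPS10, MRPS14, MRPS15, MRPS17, MRPS22, MRPS24 and MRPS25, with 10 to 25 reads. MRPL33, MRPL42, MRPS7, MRPS26 and MRPS30 had SMC1 in both genotypes without WAPL, with 11 to 23 reads.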

How the data were processed

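The authors mapped single-end reads to hg19 with Bowtie2 and called peaks per library with MACS2 2.1.1. Per the labels and the methods, IgG was the control. However, every tested background equals a whole number of the library's own reads in 10 kb or the genome average, and the calling threshold is not given in the sources used here. The lengths of the deposited lists differ from the peak numbers the study describes, so the lists may come from another run of the caller, and each near-start count holds for the deposited lists only. The deposited fold enrichment is a ratio of summit reads to local background, each with 1 read added, and its significance is deposited as −log10 p and −log10 q from a Poisson model. The whole number of reads that solves both fold enrichment and −log10 p (tolerance 0.001) was recovered at each summit, and the lowest background of a list gave its average reads at a base. The IgG lists served only to look for IgG peaks near members.

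A summit within 1 kb of any transcript start was near-start, and peaks overlapping by at least 1 bp were shared. Where a gene had several near-start peaks, the one of highest −log10 q gave its values. Ratios used overlapping near-start peaks. A peak found in 1 list but not in another was set against the reads that the weakest −log10 p of the other list requires at the scaled background. Only the counting error of the list with the peak was used. Members, gene lists (64 genes in 4 lists) and motifs were chosen with earlier results of these data known. Members named with values were the 15 of highest wild-type SMC1 −log10 q, the 10 of highest ΔWAPL −log10 q without a wild-type peak, the 6 of highest ΔWAPL/ΔSCC4 −log10 q, the 6 of highest wild-type CTCF −log10 q with CTCF in all 4 lists, and those with CTCF but no SMC1. Others were named after their values were seen. The recovery of reads was tested on simulated data. 1 summit sequence is not reported here. Sample titles gave each library's genotype and antibody. Alternatives were stricter thresholds, other windows and start sets, equal numbers of peaks, depth scaling and removal of IgG peaks. No chromosome of the files exceeded GRCh37 (0 peaks past an end). Python 3.11.15, numpy 2.4.6, pandas 2.3.3, scipy 1.17.1 and matplotlib 3.10.9 were used.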

Additional observations from a re-analysis of the deposited data

Results flagged for a closer look

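The median CTCF summit near members moved in opposite directions with the same deletion in different backgrounds. Loss of WAPL took the median multiple of the average from 32.7 to 24.8 in cells with SCC4 and from 30.2 to 32 in cells without it, so the ratios, 0.758 and 1.06, differed 1.4-fold. Loss of SCC4 took it from 32.7 to 30.2 in cells with WAPL and from 24.8 to 32 in cells without it, ratios of 0.923 and 1.29, again a 1.4-fold difference. The difference was not tested, since each genotype had 1 CTCF library, and both comparisons rest on the same 4 libraries. The medians are over different members, 24 in wild-type and 29 in ΔWAPL cells, with 23 in ΔSCC4 cells and 25 in the double deletion. Over the 21 members with CTCF in all 4 lists, the medians were 36.9 in wild-type and 34.3 in ΔWAPL cells, with 34.3 in ΔSCC4 cells and 36.9 in the double deletion.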

How the results depend on the processing

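Of 112 recomputed values, 92 stayed within 1.5 times the reported one and 20 did not. The SMC1 count was highest in ΔWAPL cells in each alternative below, and lowest in ΔSCC4 cells except with equal numbers of peaks. With −log10 q of at least 10, SMC1 lay near 7 members in wild-type and 28 in ΔWAPL cells, with 0 in ΔSCC4 cells and 9 in the double deletion, against 7.31%, 19.4%, 4% and 10.8% of all genes. The count in ΔWAPL but not wild-type cells was then 21, and that without CTCF in ΔWAPL cells 14. With −log10 q of at least 5, ΔSCC4 had 5 and ΔWAPL/ΔSCC4 17, the same number as wild-type. With fold enrichment of at least 5 these were 5 and 13, with 17 in wild-type, ΔWAPL but not wild-type 21, and without CTCF 19. With depth scaled to the shallowest library and −log10 p of at least 8 they were 5 and 15, with 14 in wild-type. With equal numbers of the strongest peaks per list, SMC1 lay near 12 members in wild-type and 20 in ΔWAPL cells, with 11 in ΔSCC4 cells and 9 in the double deletion, 9 in ΔWAPL but not wild-type, and 7 without CTCF. The cause was not tested. The median ratio of ΔWAPL to wild-type was 1.41 with fold enrichment in place of summit reads, which was classed as moved. An alternative chosen after seeing the data, the canonical start only, gave 19, 51, 10 and 25 members (all genes 11.8%, 37.5%, 8.16% and 18.1%). No paired analysis was possible because each group had 1 library. No replicate could be left out. Summits of 8 to 15 reads are near the calling limit, so presence or absence there is uncertain, and genes that share a start share a peak.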
